A study of Caenorhabditis elegans with 12 samples.

Results

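The intermediate filament genes of Caenorhabditis elegans were measured in worms exposed to ultraviolet light (UV), to titanium dioxide (TiO2), to both or to neither. The genes ifa-1, ifa-2, ifa-3, ifa-4, ifb-1, ifb-2, ifc-1, ifc-2, ifd-1 and ifd-2 were looked up by symbol in the probe annotation of the array, and 9 of the 10 were found, among 17118 genes with a symbol of their own. They had 12 of the 22548 probe sets tested (a probe set is a group of probes that gives 1 value for a transcript). ifb-1 had 2 probe sets, ifc-2 had 3 and the other 7 genes had 1 each. The symbol ifa-2 is not in that annotation. It is the older name of mua-6, whose probe set is given beside the members and is not counted among them.

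The worms were wild-type hermaphrodites from an age-synchronised culture, used as young adults of 3 days and held for 24 h without food at 20 °C in a potassium and sodium chloride medium. The control group received neither agent, the TiO2 group received TiO2 in the same medium, the UV group was irradiated for the opening 4 h, and the UV+TiO2 group received both. After irradiation the UV groups shared an incubator with the others for 20 h. The TiO2 concentration and the wavelength and dose of UV are not given in the sources used here, and no group carried a mutation or transgene.

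Each group had 3 samples, and RNA of each was measured on an Affymetrix array as a log2 value. No source used here says that the 3 samples were separate cultures. The p-values therefore reflect sample-to-sample spread that may be technical. Array medians lay between 6.361 and 6.478 on the arrays with UV. On those without UV they lay between 6.545 and 6.625, so every array with UV had a lower median. The SD of all values lay between 2.22 and 2.33, and no 2 arrays held the same values. No slide or scan date was given, so a batch could not be looked for. The number of arrays limits the precision: the median standard error (SE) of a log2 difference between 2 groups was 0.12.

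Intermediate filaments are rope-like polymers that give cells resistance to stretch. Each subunit is a long coiled-coil rod, and in C. elegans several subunits only assemble with a partner. In the intestine of the worm, IFB-2, IFC-1, IFC-2, IFD-1, IFD-2 and IFP-1 build the endotube, a dense filament sheath just under the microvilli that line the lumen. In the epidermis and other tissues IFB-1 pairs with the A-type proteins IFA-1 to IFA-4, and part of these filaments runs through the fibrous organelles, hemidesmosome-like structures that tie muscle through the epidermis to the cuticle. IFA-4, IFB-1 and IFC-2 also surround the lumen of the excretory canal.

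All 9 genes had at least 1 probe set that was lower after UV, and on the deposited values none had a probe set that rose. In UV against control 10 of the 12 probe sets fell and 0 rose (limma, Benjamini-Hochberg adjusted p under 0.05 over all probe sets), beside 23.1% of all probe sets that fell and 27.5% that rose. The median log2 difference of the 12 was −1.07, and that of all probe sets was 0.11. At least 2-fold falls that passed the test were found in 7 of the 12 probe sets, against 10.1% of all. In 10 of the 12 every UV sample was below every control sample, against 24.7% of all. In the UV+TiO2 group 11 of 12 fell and 0 rose against control, where 22.6% of all probe sets fell and 31.9% rose, with a median of −1.24 beside 0.15 overall. Falls of at least 2-fold numbered 7 (9.98% of all), and in 11 every sample was below control (24.4% of all). Centring the arrays on their medians moved the share of rises among all called probe sets from 54.3% to 74.6% for UV and from 58.6% to 73.1% for UV+TiO2. It left 10 and 11 of the 12 lower, against 18.5% and 19.2% of all probe sets. With UV, 175020_at of ifb-1 was then called higher (0.42, limma adjusted p = 0.0213). TiO2 without UV gave no call among them. The RNA came from whole worms, so fewer cells of a type and less RNA per cell cannot be told apart. By the F-test over the 4 groups 11 of 12 differed, against 55.5% of all probe sets.

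**Figure D1:**
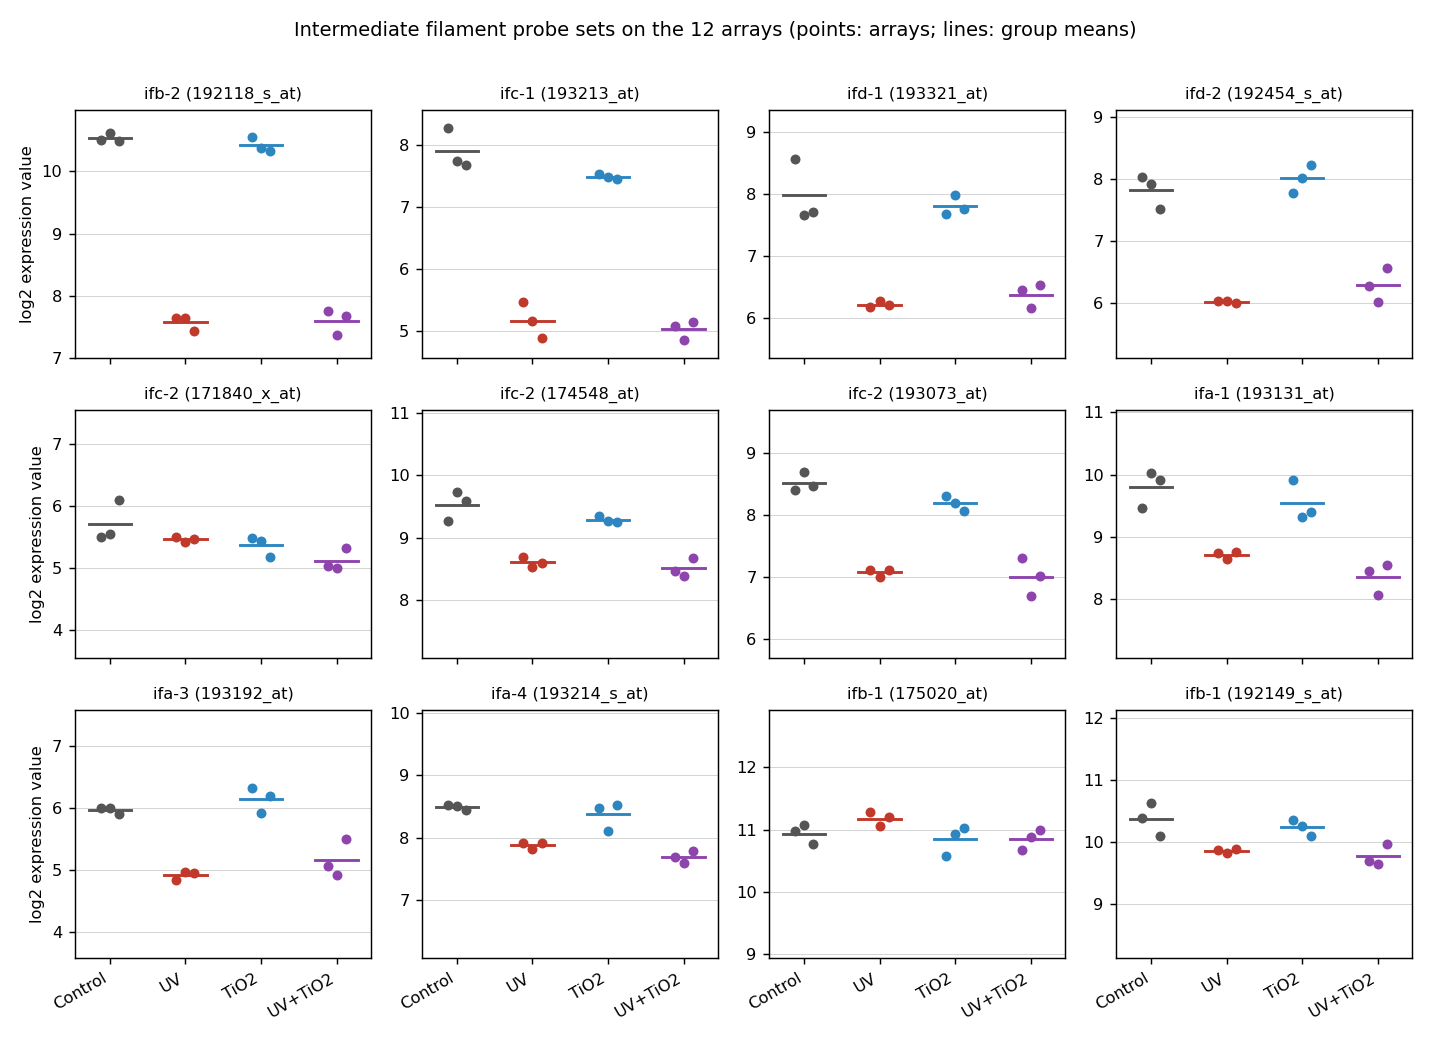
Log2 expression value (vertical axis, 4 log2 units in every panel) of the 12 intermediate filament probe sets in the 4 groups (horizontal axis). Points are arrays, lines are group means. For ifb-2, ifc-1, ifd-1 and ifd-2 the 6 arrays with UV lie more than 0.9 below the 6 without it, while the first ifb-1 panel shows overlapping groups.

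The deepest falls belonged to subunits of the intestinal endotube. ifb-2, whose protein is the standard stain for the endotube, had log2 values of 10.51, 10.62 and 10.49 in the control samples and 10.56, 10.37 and 10.33 with TiO2. The UV samples were at 7.64, 7.64 and 7.43, and the UV+TiO2 samples at 7.75, 7.37 and 7.67. All 6 samples with UV were low, all 6 without it were high, and TiO2 left no gap on either side. The fall after UV was 7.86-fold (log2 difference −2.97, SE 0.11, 95% interval −3.22 to −2.73, limma adjusted p = 6.0e-10), the 99th smallest p of the 22548 probe sets. The only probe set of ifb-2, 192118_s_at, has a suffix that marks probes that can read related transcripts. Against control the UV+TiO2 group was 7.71-fold lower (−2.95, limma adjusted p = 5.7e-10). In order of level the means were 10.54 in control, 10.42 with TiO2, 7.60 with UV+TiO2 and 7.57 with UV, and only the step between the second and the third exceeded the spread.

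ifc-1, another endotube subunit, followed the same division. Its values were 8.27, 7.75 and 7.68 in control, 5.47, 5.16 and 4.89 with UV, 7.53, 7.49 and 7.45 with TiO2, and 5.09, 4.87 and 5.15 with UV+TiO2. UV samples lay 2.21 or more below control samples, and replicate 1 was the highest of each of those 2 groups. The fall was 6.62-fold with UV (−2.73, SE 0.16, adjusted p = 3.8e-08) and 7.26-fold with both agents (−2.86, adjusted p = 2.4e-08). The 3 TiO2 samples were below all 3 control samples by 0.14 or more, and the difference of −0.41 (95% interval −0.76 to −0.05) did not pass the adjustment (adjusted p = 1). Groups without overlap in that direction made up 3.15% of all probe sets in TiO2 against control.

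The D-type subunits ifd-1 and ifd-2, which also lie in the endotube, fell by similar amounts. ifd-1 was at 8.56, 7.66 and 7.72 in control and at 7.68, 7.98 and 7.76 with TiO2. With UV it was at 6.18, 6.28 and 6.21, and with UV+TiO2 at 6.46, 6.16 and 6.53. Control replicate 1 stood above the other 5 samples without UV, and no sample with UV reached any of them. The fall was 3.38-fold after UV (−1.76, SE 0.20, limma adjusted p = 1.0e-05) and 3.03-fold after both (−1.60, limma adjusted p = 2.6e-05). Without control replicate 1 the UV difference was −1.47 and still passed (limma adjusted p = 1.2e-06).

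For ifd-2 the control samples were at 8.03, 7.91 and 7.51 and the TiO2 samples at 7.78, 8.02 and 8.22. The UV samples agreed closely at 6.03, 6.03 and 6.01, and the UV+TiO2 samples spread from 6.02 to 6.57. Here too the samples with and without UV did not overlap. The fall was 3.46-fold after UV (−1.79, SE 0.16, adjusted p = 1.5e-06) and 2.89-fold after both (−1.53, adjusted p = 6.2e-06). The intervals of ifd-1 and ifd-2 after UV, −2.19 to −1.33 and −2.14 to −1.44, covered nearly the same range and lay above those of ifb-2 and ifc-1.

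ifc-2, a large gene whose product is also needed to keep the excretory canal narrow, had 3 probe sets that differed in size of response. The probe set 193073_at was at 8.40, 8.69 and 8.46 in control and at 7.12, 7.0 and 7.11 with UV, a 2.72-fold fall (−1.44, SE 0.14, limma adjusted p = 2.5e-06). 174548_at was at 9.27, 9.73 and 9.59 in control and at 8.69, 8.53 and 8.59 with UV, a 1.90-fold fall (−0.93, SE 0.12, adjusted p = 2.8e-05). In both, control and UV samples did not overlap. The third, 171840_x_at, was at 5.50, 5.55 and 6.10 in control and at 5.50, 5.42 and 5.48 with UV. It overlapped between these groups and did not pass (−0.25, 95% interval −0.58 to 0.08, adjusted p = 0.19). In the UV+TiO2 samples it was at 5.03, 5.01 and 5.33, which was lower than control (−0.59, adjusted p = 0.0059). Its suffix _x_at marks probes that can bind other transcripts, and what else it reads was not analysed here.

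The A-type genes fell less deeply than ifb-2 and ifc-1. ifa-1, found in the pharynx and other epithelia, was at 9.46, 10.03 and 9.92 in control, 8.73, 8.64 and 8.76 with UV, 9.92, 9.32 and 9.39 with TiO2, and 8.44, 8.06 and 8.55 with UV+TiO2. The samples with UV were below all samples without it. Its fall was 2.13-fold after UV (−1.09, SE 0.18, adjusted p = 2.9e-04) and 2.73-fold after both (−1.45, adjusted p = 3.0e-05). The UV+TiO2 samples also lay below all UV samples, by 0.09 or more. That difference of −0.36 (95% interval −0.75 to 0.04) did not pass (adjusted p = 0.841), and 8.27% of all probe sets had such a gap downward.

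ifa-3, an epidermal subunit, was at 6.0, 6.0 and 5.90 in control, 4.84, 4.96 and 4.95 with UV, 6.32, 5.91 and 6.19 with TiO2, and 5.07, 4.91 and 5.49 with UV+TiO2. Without UV its samples were again all above those with UV. It fell 2.07-fold after UV (−1.05, SE 0.14, adjusted p = 4.6e-05) and 1.75-fold after both (−0.81, adjusted p = 4.0e-04). ifa-4, a subunit of the excretory canal among other tissues, was at 8.53, 8.51 and 8.44 in control, 7.92, 7.82 and 7.91 with UV, 8.48, 8.11 and 8.53 with TiO2, and 7.68, 7.59 and 7.79 with UV+TiO2. Its fall was 1.53-fold after UV (−0.61, SE 0.11, adjusted p = 4.7e-04) and 1.75-fold after both (−0.81, adjusted p = 5.2e-05), with no overlap in either case.

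ifb-1, the obligate partner of the A-type subunits, gave 2 different answers. The probe set 192149_s_at was at 10.39, 10.62 and 10.10 in control and at 9.87, 9.83 and 9.88 with UV. These groups did not overlap, and the fall was 1.43-fold (−0.51, SE 0.13, adjusted p = 0.00594). With both agents it fell 1.51-fold (−0.60, adjusted p = 0.00223). The probe set 175020_at was at 10.97, 11.07 and 10.76 in control and at 11.28, 11.05 and 11.20 with UV. The groups overlapped, the difference of 0.24 (95% interval −0.05 to 0.53) did not pass (adjusted p = 0.15), and that with both agents was −0.09 (adjusted p = 0.596). After median centring of the arrays the UV difference of 175020_at was 0.42 and passed (adjusted p = 0.0213). Over 19 repeats with other settings the UV difference of 192149_s_at ran from −0.69 to −0.33. It passed in all 19, in 1 of them narrowly (largest limma adjusted p = 0.0452).

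Whether the probe sets of a gene moved by different amounts was tested within arrays. The difference between 2 probe sets was taken on each array and compared between the 6 arrays with UV and the 6 without, in a two-sided exact permutation test over 4 pairs. For ifb-1 the difference of 175020_at minus 192149_s_at was larger with UV by 0.61 (exact p = 0.00216, the smallest this design allows, and 0.00288 adjusted over the 4 pairs). For ifc-2, 171840_x_at minus 193073_at was larger with UV by 1.06 and 171840_x_at minus 174548_at by 0.61 (exact p = 0.00216 each, adjusted 0.00288). The pair 174548_at minus 193073_at was larger with UV by 0.46 (exact p = 0.00433). A gene-level value of ifb-1 or ifc-2 therefore depends on the probe set read. Which transcripts of these genes each probe set detects was not analysed here.

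**Figure D2:**
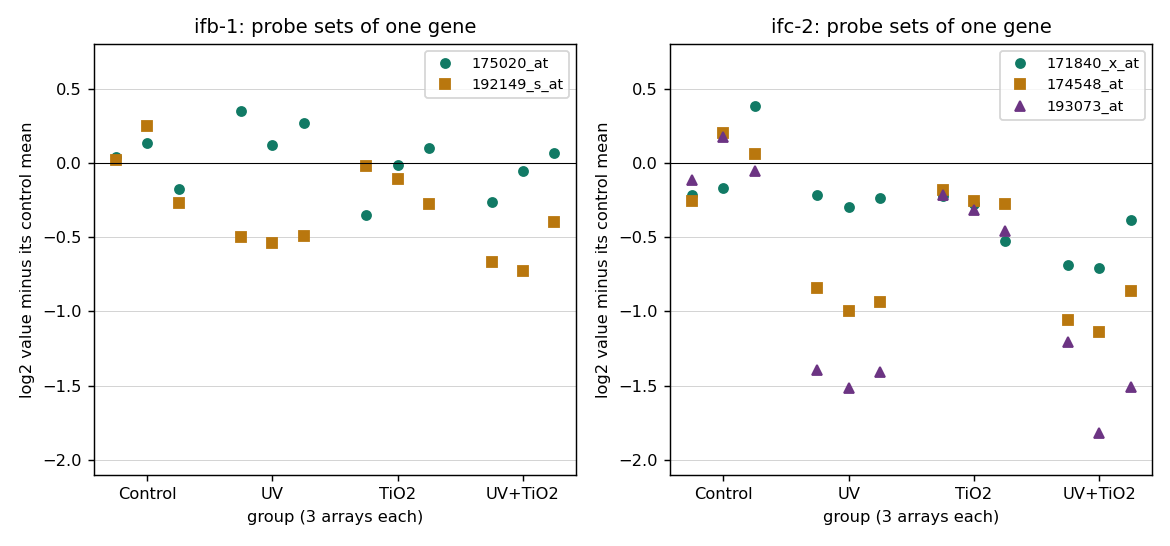
Log2 value of each probe set of ifb-1 (left) and ifc-2 (right) minus its own mean in control (vertical axis), on 3 arrays per group (horizontal axis). In the UV group the ifb-1 probe sets lie on opposite sides of 0, in the UV+TiO2 group 175020_at lies around 0 and 192149_s_at below it, and in both groups the ifc-2 probe sets lie in the order 171840_x_at, 174548_at, 193073_at from highest to lowest.

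Across the genes the endotube subunits ifb-2, ifc-1, ifd-1, ifd-2 and ifc-2 had UV differences from −2.97 to −0.25, the latter by 171840_x_at of ifc-2, and to −0.93 by their other probe sets. The A-type genes and ifb-1 ranged from −1.09 to 0.24. The ranges overlapped, also without 171840_x_at, since ifa-1 and ifa-3 (−1.05) fell by more than 174548_at of ifc-2. Related filament genes outside the symbol list were read beside them. ifp-1, also of the endotube, was at 8.44, 7.50 and 7.87 in control and at 6.47, 6.37 and 6.80 with UV, without overlap, and fell 2.63-fold (−1.39, SE 0.20, adjusted p = 7.5e-05). mua-6, the epidermal subunit formerly called ifa-2, was at 7.51, 7.96 and 7.76 in control and at 7.33, 7.44 and 7.44 with UV. It fell 1.27-fold after UV (−0.34, adjusted p = 0.0342), and its difference of −0.29 after both agents did not pass (adjusted p = 0.0602). lmn-1, the nuclear lamin, fell 1.35-fold after UV (−0.44, adjusted p = 0.00326) and 1.27-fold after both (−0.34, adjusted p = 0.0134).

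**Figure D3:**
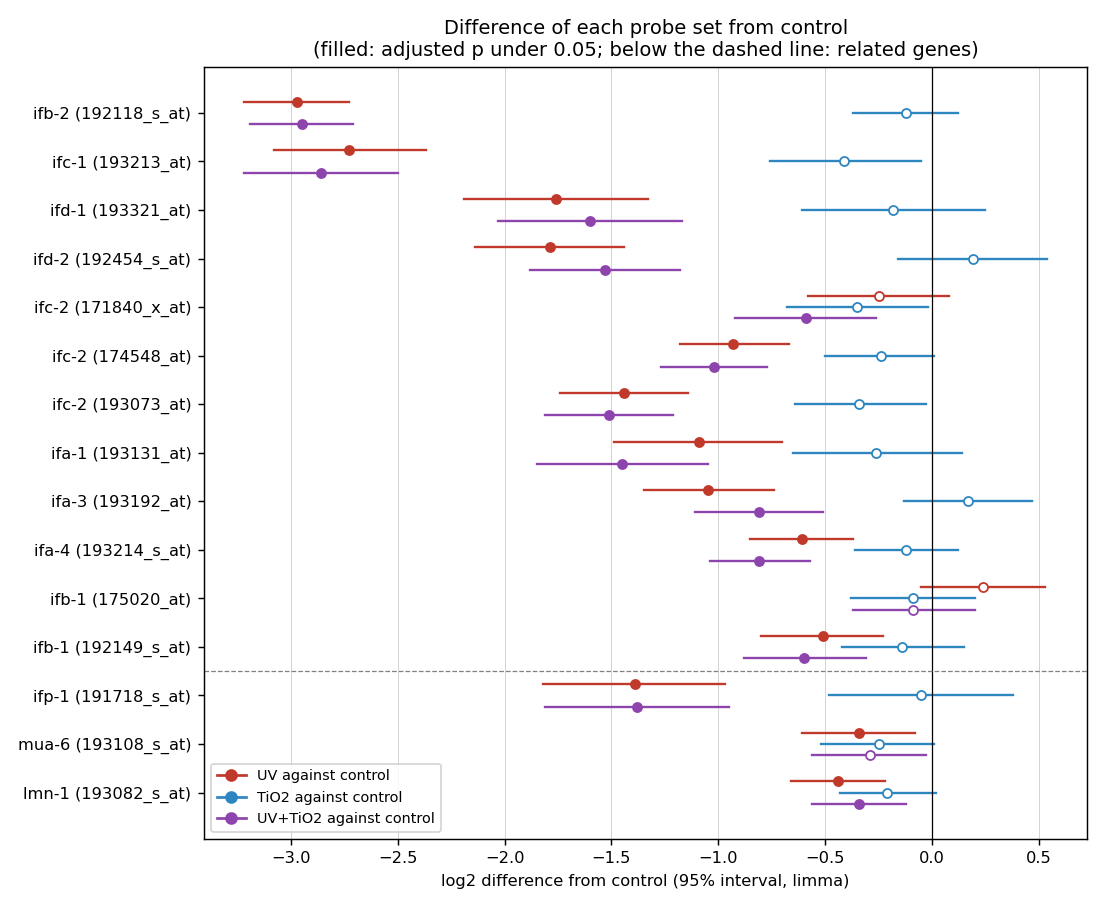
Log2 difference from control (horizontal axis) of each intermediate filament probe set and of 3 related genes, for the 3 exposures. Points are limma estimates, lines are 95% intervals, and filled points passed an adjusted p of 0.05. UV and UV+TiO2 estimates lie close together, from −2.97 for ifb-2 to 0.24 for ifb-1, and all TiO2 estimates are open.

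ifb-1 and ifb-2 lie on the same chromosome with 3 protein-coding genes between them in the RefSeq table for WBcel235, and responded differently. Their UV differences were −2.97 for ifb-2 and −0.51 or 0.24 for ifb-1. ifa-3 and mua-6 are next to each other, with UV differences of −1.05 and −0.34.

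TiO2 without UV called none of the 12 probe sets. Over all probe sets limma called 1 (0.00443%), and at an unadjusted p under 0.05 there were 3 of the 12 and 1027 of all 22548. The member differences ran from −0.41 for ifc-1 to 0.19 for ifd-2, with a median of −0.16 beside 0 for all probe sets. Besides ifc-1 the probe sets of ifc-2 were among the lowest. 193073_at was at 8.30, 8.20 and 8.06 with TiO2, all below its control samples (−0.34, 95% interval −0.64 to −0.03, adjusted p = 1). 171840_x_at was at 5.49, 5.44 and 5.19, also below control, by 0.01 or more (−0.35, interval −0.68 to −0.02, adjusted p = 1). For ifb-2 the interval of −0.37 to 0.12 leaves room for a small fall or a smaller rise.

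Adding TiO2 to UV called none of the 12 probe sets, against 0.0887% of all. At an unadjusted p under 0.05 there were 2 of the 12 and 1384 of all. These were 175020_at of ifb-1 (10.67, 10.88 and 11, −0.33 against UV, adjusted p = 0.71) and 171840_x_at of ifc-2 (−0.34, adjusted p = 0.78). In both the UV+TiO2 samples were below all UV samples, as they were for ifa-1 and ifa-4, and 4 of 12 such gaps stood beside 8.27% of all probe sets. ifd-2 had the largest difference upward, 0.26 (95% interval −0.09 to 0.61, adjusted p = 0.876).

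Adding UV to TiO2 gave a similar picture to UV alone, on samples that do not share the control group. Of the 12 probe sets 10 fell and 0 rose, where 22.2% of all fell and 32.3% rose. In 10 the UV+TiO2 samples were all below the TiO2 samples, against 25.2% of all. ifb-2 fell 7.08-fold (−2.82, adjusted p = 9.0e-10), ifc-1 5.48-fold (−2.45), ifd-2 3.29-fold (−1.72) and ifd-1 2.68-fold (−1.42). ifa-1 fell 2.29-fold (−1.19), ifa-3 1.97-fold (−0.98) and ifa-4 1.61-fold (−0.69). ifc-2 fell by 193073_at (−1.18, adjusted p = 1.6e-05) and by 174548_at (−0.78, adjusted p = 1.3e-04). Its 171840_x_at overlapped between the groups and did not pass (−0.25, adjusted p = 0.18). ifb-1 again fell by 192149_s_at (−0.46, adjusted p = 0.0108) and was at 0.01 by 175020_at (adjusted p = 0.962).

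The interaction asks whether the UV difference changed in the presence of TiO2. limma called 0 of the 12 probe sets and 0% of all, and at an unadjusted p under 0.05 there were 0 of the 12 and 1162 of all. Member estimates ran from −0.23 for ifb-1 (175020_at) to 0.34 for ifd-1. The 95% interval of ifb-2 was −0.19 to 0.49, and that of ifd-1, the widest among the genes with deep falls, was −0.27 to 0.95.

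Genes whose profiles over the 12 arrays were closest to a member were found by the root mean square (RMS) difference of centred log2 values. For ifb-2 they were C18B2.5 (0.118), lgc-22 (0.124) and snet-1 (0.142), and 172 of the 17118 genes lay within 0.3. For ifc-1 they were clec-264 (0.188), snet-1 (0.198) and K04G2.9 (0.204), with 98 genes within 0.3. ifd-1 had nas-37 (0.151) and ifd-2 had C07H4.1 (0.134) as the closest gene. Among the members themselves ifb-2 and ifc-1 differed by an RMS of 0.26 and ifd-1 and ifd-2 by 0.25, while ifa-4 was at 0.18 from both 192149_s_at of ifb-1 and 174548_at of ifc-2. Closeness was common for the members with small responses: 8330 genes lay within 0.3 of 175020_at of ifb-1 and 2643 of ifa-4.

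Most partners of the intestinal filaments fell as well. Of 7 genes for proteins that organise the endotube or the microvilli above it, 5 fell after UV and 1 rose, with a median of −1.30 beside 0.11 for all genes, of which 22.8% fell and 27.9% rose. ifo-1, which organises the intestinal filaments, fell 2.46-fold (−1.30, SE 0.23), and bbln-1, a small coiled-coil protein of the same network, fell 3.47-fold (−1.79, SE 0.13). sma-5, a kinase that shapes the intestinal tube, fell 1.62-fold. Of the microvillar genes, the actin act-5 fell 3.58-fold and eps-8, which caps actin filaments, 3.71-fold. The probe sets of ifo-1 and act-5 have the suffix _s_at and may read related transcripts, for act-5 other actins. The plastin gene plst-1 rose 1.51-fold, and erm-1, which links membrane to actin, was at −0.05 (adjusted p = 0.642). With both agents 5 fell and 1 rose too, bbln-1 by 3.04-fold and ifo-1 by 2.39-fold.

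Apical junction and polarity genes were split. Of 14 genes 7 fell and 3 rose after UV (median −0.28). The 4 with the smallest F-test p all fell: vab-9, a claudin-like membrane protein (6.29-fold), the Discs large gene dlg-1 (4.11-fold), ajm-1 (2.92-fold) and zoo-1 (1.85-fold). Of 10 measured genes of the fibrous organelles and attachments 4 fell and 2 rose (median −0.29). let-805, the transmembrane protein myotactin, fell 2.97-fold (−1.57), vab-10, a spectraplakin that links to intermediate filaments, 3.03-fold (−1.60), the perlecan gene unc-52 2.06-fold, and pat-12 1.79-fold. Among 12 measured genes of the excretory canal 8 fell and 2 rose (median −0.62). Falls were found for exc-15 (3.36-fold), exc-7 (2.71-fold), inx-13 (2.55-fold) and inx-12 (1.64-fold).

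Other cytoskeletal genes were split too. Of 22 actin, tubulin, spectrin and associated genes 9 fell and 3 rose (median −0.19). The neuronal tubulins mec-12 (2.90-fold) and mec-7 (2.35-fold) and the spectrins spc-1 (2.89-fold) and unc-70 (2.23-fold) had the smallest p over the 4 groups, and all 4 fell. With arrays centred on their medians the medians of the junction, fibrous organelle and cytoskeletal lists moved to −0.11, −0.11 and −0.01, with rises in 5, 4 and 5 genes and falls in 6, 4 and 9. For the excretory canal list the centred median was −0.44, with 4 rises and 7 falls.

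**Figure D4:**
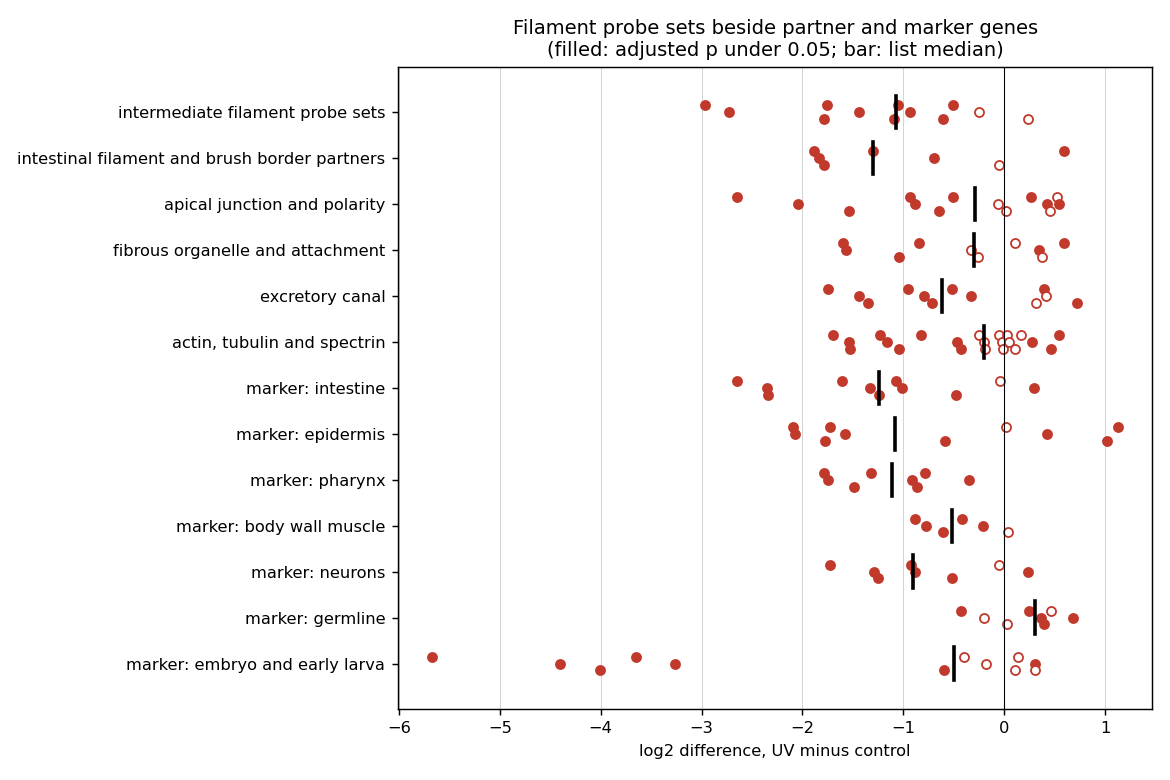
Log2 difference of UV minus control (horizontal axis) for the 12 intermediate filament probe sets and for the genes of partner and marker lists (vertical axis). Filled points passed an adjusted p of 0.05, and the bar is the list median. The filament median of −1.07, over subunits of several tissues, lies near those of intestinal (−1.24), epidermal (−1.08) and pharyngeal markers (−1.11). It counts every probe set of ifb-1 and ifc-2, while the lists hold 1 probe set per gene. ifb-2 (−2.97) and ifc-1 (−2.73) lie below the lowest intestinal marker, aqp-4 (−2.65), and the other filament probe sets lie above it. Neuronal markers lie at −0.90, body wall muscle markers at −0.51, embryo and early larva markers at −0.50 and germline markers at 0.31.

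Most markers of the intestine, epidermis and pharynx fell after UV, and so did most markers of neurons and body wall muscle. Of 11 intestinal markers 9 fell and 1 rose after UV (median −1.24). The 4 with the smallest F-test p all fell: the water channel gene aqp-4 (6.29-fold), the proteases asp-1 (5.09-fold) and cpr-1 (5.08-fold) and the esterase ges-1 (2.37-fold). The mean log2 value of the 11 per sample was 8.31 to 8.46 in control, 7.08 to 7.19 with UV, 8.38 to 8.39 with TiO2 and 7.15 to 7.38 with both. Of 10 epidermal markers 6 fell and 3 rose (median −1.08), and 8 of 8 pharyngeal markers fell (median −1.11). Among 8 neuronal markers 6 fell and 1 rose (median −0.90), and body wall muscle markers fell in 5 of 6 (median −0.51). These were unc-89 (1.85-fold), unc-54 (1.70-fold), hlh-1 (1.52-fold), myo-3 (1.34-fold) and mlc-2 (1.16-fold), while unc-15 was at 0.04 (limma adjusted p = 0.768). After median centring of the arrays 3 of these 6 fell (median −0.33). Of 8 germline markers 4 rose and 1 fell (median 0.31).

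Adult hermaphrodites carry embryos inside them. Of 12 markers of embryos and early larvae 6 fell and 1 rose after UV. After median centring 6 fell and 4 rose, and with both agents, uncentred, 6 fell and 3 rose. The list median was −0.50 after UV, −0.32 after UV with centring, and −0.33 with both agents, uncentred. The 4 genes with the smallest F-test p all fell after UV: dpy-14 50.8-fold, dpy-17 21.1-fold, hch-1 16.1-fold and noah-1 12.5-fold. Of the others noah-2 (9.58-fold) and pes-10 (1.52-fold) also fell, and end-3 rose 1.24-fold. The log2 differences of end-1 (0.31), tbx-37 (0.14), pes-1 (0.11), sqt-3 (−0.18) and let-653 (−0.40) did not pass. The 3 that rose with both agents were end-1, end-3 and tbx-37. The mean log2 value of the list was 8.84 to 8.97 in control and 7.07 to 7.24 with UV, 8.95 to 9.06 with TiO2 and 7.14 to 7.37 with both. The deepest falls weigh more on this mean than on the list median. The part of these marker changes in the falls of the intermediate filament genes was not tested.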

How the data were processed

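Total RNA (300 ng per sample) was amplified, biotin-labelled and hybridised to Affymetrix arrays, per the labels' protocols. Per the submitters' processing notes the authors used GCOS, the Affymetrix Expression Console and RMA, a method that as a rule corrects background, quantile-normalizes and sums probes to 1 value; their versions are not stated there. The deposited values are log2 expression values of 22625 probe sets without detection calls. A general loss of RNA in a group would not show after quantile normalization.

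The 77 control probe sets were dropped and the other 22548 tested, without a filter. The platform annotation gave 1 symbol to 20766 probe sets, several to 887 and none to 895. By gene number 20701 of the first matched RefSeq (WBcel235), used for names and neighbours. limma 3.58.1 in R 4.3.3 fitted the 4 group means to all 12 arrays (8 residual and 4.37 prior degrees of freedom), with Benjamini-Hochberg adjustment over all probe sets and a threshold of 0.05. The procedure was tested on simulated data. In partner and marker lists a gene was read by its probe set with the highest mean. Named were all members and all genes of lists with at most 7 measured genes. Of longer lists up to 4 could be named, those with the smallest F-test p, and of some marker lists none was. The embryo and early larva markers were all named, so that those that did not fall are seen. Members and lists were chosen with earlier results of these data known. Suffixes _s_at (4 member probe sets) and _x_at (1) mark probes that can read related transcripts. The 4 were those of ifa-4, ifb-2 and ifd-2 and 192149_s_at of ifb-1. The probe sets of ifp-1, mua-6 and lmn-1 also end in _s_at. act-1, act-2, bus-8, exc-1 and gei-16 were listed and not measured by a probe set of their own.

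The analysis was repeated with the replicate number as a block, with a level-dependent prior variance, without the lowest 30% of probe sets, after another quantile normalization, after median centring, with weighted arrays, with a single probe set for each gene, on the 6 arrays of a comparison alone, and without each array in turn.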

Additional observations from a re-analysis of the deposited data

How the results depend on the processing

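The counts of intermediate filament probe sets called stayed within 1.5 times of those reported under all 20 alternatives (19 for the interaction and the F-test). For UV against control they were 8 to 11, the 8 being out of 9 genes read by 1 probe set each, for UV+TiO2 against control 8 to 11, and for UV+TiO2 against TiO2 8 to 11. They were 0 throughout for the interaction, for UV+TiO2 against UV and for TiO2 without UV. Without each array in turn the first 3 stayed at 10, 11 and 10. The 11 for UV came with median centring and held 10 falls and 1 rise, that of 175020_at of ifb-1. Over all probe sets the calls for UV ran from 8703 to 16406, where some settings tested fewer probe sets. They ran from 9354 to 16150 for UV+TiO2 against control and from 9384 to 15923 for UV+TiO2 against TiO2. Of the single log2 differences no called value changed direction or lost its call. A call was gained in 2 cases: 175020_at of ifb-1 for UV with median centring (0.42, adjusted p = 0.0213) and 171840_x_at of ifc-2 for UV+TiO2 against TiO2 with quantile normalization (−0.35, adjusted p = 0.0341). Centring raised the median of all probe sets for UV from 0.11 to 0.29, and for UV+TiO2 against TiO2 the share of rises among called ones from 59.3% to 72.7%. Over all probe sets, array weights raised the calls for TiO2 from 1 to 28, for UV+TiO2 against UV from 20 to 1856 and for the interaction from 0 to 220, with no member among them. The second of these counts was 2 to 69 when an array was left out.

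Deviations from the group means were correlated between samples of different groups. With the same replicate number the correlations ran from −0.71 to 0.50, and 8 of 18 pairs exceeded 0.1. With different numbers they ran from −0.51 to 0.62, and 13 of 36 pairs exceeded 0.1. The few deviations within a group cancel out, which ties these correlations to each other. They therefore cannot decide whether the number pairs the samples. With the replicate block 10 member probe sets were called for UV, 11 for UV+TiO2 against control and 10 for UV+TiO2 against TiO2, as without it. The planned motif search was not run, since no promoter sequence was used here. The deposited table gives no signal over background, so how far the low values of ifa-3 and 171840_x_at are compressed is unknown.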
